A study of Mus musculus with 46 samples.

Results

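Multipotent germline stem cells made with Sox2 (Sox2 mGS) were compared with induced pluripotent stem cells (iPS). The comparison took the 12 arrays titled as these 2 kinds of cell, which hold 6 of the 23 lines and 12 of the 46 arrays of the series. Sox2 mGS lines 1, 2 and 3 came from germline stem (GS) cells, spermatogonial stem cells in culture, after a lentivirus carrying Sox2 and a knock-down of p53. The iPS lines 1, 2 and 5 received retroviruses for Oct4, Sox2, Klf4 and c-myc, and their cell of origin is not given. All 6 lines carry the strain label DBA/2 with a GFP transgene, whose promoter is not given. All were grown on mouse embryonic fibroblast feeders in medium with serum and LIF, and feeders were removed by letting them attach to gelatin before RNA was taken. Each line was grown in 2 cultures, and the 2 log2 values were averaged, so that n = 3 lines per group. Whether the lines of a group came from separate animals is not given, so a p-value here speaks of the spread among lines only. The other lines, used as references and in the shared fit, were 3 embryonic stem (ES) lines, 2 spontaneous mGS lines, 3 GS lines, and 3 lines each made from GS cells by p53 knock-down with Dnmt1 knock-down (Dnmt mGS), Dmrt1 knock-down (Dmrt mGS) or Oct4 (Oct4 mGS).

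Mouse pluripotent cells in serum and LIF keep a network of transcription factors running. Pou5f1 (Oct4), Sox2 and Nanog form its core. Esrrb, Klf4, Klf2, Tfcp2l1 and Tbx3 belong to the naive layer, which LIF, acting through Jak kinases and Stat3, and Wnt signalling help to hold and which cells lose as they move to the primed state of the later epiblast. Lgr5, a receptor for R-spondins that strengthens Wnt signalling and marks stem cells of the gut and hair follicle, is not a usual marker of ES cells. Embryonic fibroblasts used as feeders make collagens and other matrix proteins and can stay in the sample.

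The values are array intensities, and the level under which a gene cannot be told from background was taken as 160.9, the 95th percentile of 1016 olfactory receptor genes. Array medians lay between 230.7 and 239.7 in Sox2 mGS and between 215.4 and 224.0 in iPS, so they did not overlap, and the median log2 difference of all genes was 0.0952. Differences are log2 of Sox2 mGS over iPS ± the standard error of the limma fit, and a gene rose or fell where its adjusted p was under 0.05. The number of arrays limits the precision. Pou5f1 was high in all lines, 4542, 4227 and 4288 in Sox2 mGS and 5234, 5056 and 4539 in iPS (−0.18 ± 0.24, adjusted p = 0.59), and Nanog read 2937 to 4385 in Sox2 mGS and 4534 to 5930 in iPS (−0.61 ± 0.22, adjusted p = 0.055, and called when each array was centred on its median, at −0.76, or without Sox2 mGS 1, at −0.78). Both groups thus carried these markers of their label, while Esrrb, another, was below background in Sox2 mGS 2. Of the markers of other cells, the spermatogonial factor Zbtb16 was below background in all 6 lines, as were the macrophage genes Ptprc and Csf1r, the endoderm factor Sox17 and the testis genes Amh, Cyp17a1 and Star. Above background in some lines of both groups were the germ cell genes Ddx4 (242 to 431 against 201 to 383) and Dazl (210 to 516 against 307 to 538), the GDNF receptor subunit Ret (249 to 285 against 176 to 231) and the endoderm factors Gata4 (193 to 225 against 159 to 214) and Gata6 (215 to 266 against 290 to 535), with no group call for any of the 5. Gfra1, the GDNF receptor of spermatogonial stem cells, read 556 to 826 in Sox2 mGS against 181 to 202 in iPS. The macrophage gene Cd68 was higher in iPS, at 1384 to 1627 against 391 to 586. Its call was lost without any 1 line but Sox2 mGS 1 (−1.72 to −1.55). The 11 lines of ES, mGS, Dnmt mGS and Dmrt mGS read 325 to 2472, a range that holds both groups.

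Fibroblast markers differed between the groups in every line. Col1a1, a fibrillar collagen chain, was 3374, 2410 and 3456 in Sox2 mGS lines 1, 2 and 3 and 562, 728 and 727 in iPS lines 1, 2 and 5. Thy1, a surface marker of fibroblasts, was 3924, 2646 and 3871 against 373, 492 and 709. The feeder score, the mean log2 level of 66 measured feeder and fibroblast genes given as an intensity, was 1387 to 1911 in Sox2 mGS and 381 to 504 in iPS, with a log2 difference of 1.93. The summed intensity of the list was 141708 to 188029 per line in Sox2 mGS and 48877 to 59238 in iPS, and 3 and 11 of its 66 members were below background, Pdgfrb among those below in iPS. In such bulk samples, fewer cells of a type and less RNA per cell cannot be told apart.

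Fibroblast genes were therefore kept apart. They are the 66 list genes and 1506 others whose level had a Pearson r of at least 0.7 with the feeder score over the 14 lines of ES, mGS, Dnmt mGS, Dmrt mGS and Oct4 mGS, which do not enter the comparison. Across all genes, 4708 of 19938 (23.6%) passed, 2869 higher (14.4%) and 1839 lower (9.22%) in Sox2 mGS. The count was 2420 without Sox2 mGS 3, 2847 without iPS 1 and 2908 without iPS 2. Outside fibroblast genes 18366 genes were tested, of which 2278 rose (12.4%) and 1833 fell (9.98%). That total of 4111 was 2121 without Sox2 mGS 3, 2500 without iPS 1 and 2531 without iPS 2. The split depended on scaling: with each array centred on its median 1283 rose and 3003 fell over all genes and 796 and 2982 outside fibroblast genes, and with quantile normalization 1807 and 2445, and 1302 and 2436. With the 40% dimmest genes left out, 1771 rose and 1726 fell. Of the 1572 fibroblast genes, 591 rose and 6 fell. With the line's feeder score as a covariate, 1936 genes rose (9.71%) and 1256 fell (6.3%). The score does not overlap between the groups. That fit takes its slope from score differences within each group of lines. It then carries the slope across the log2 gap of 1.93 between Sox2 mGS and iPS.

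**Figure D1:**
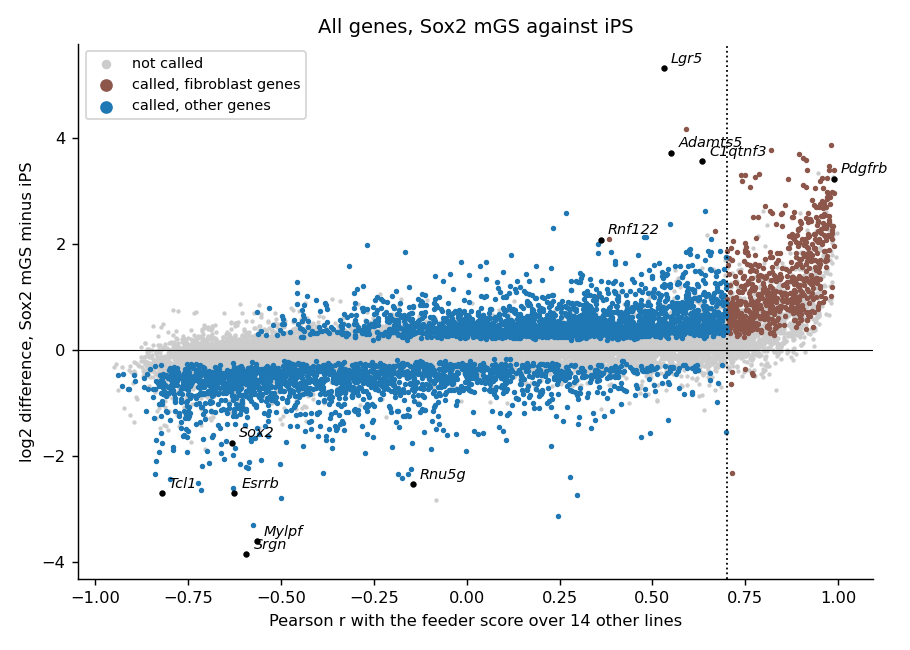
Log2 difference between Sox2 mGS and iPS (vertical axis) against the Pearson r of each gene with the feeder score over 14 other lines (horizontal axis), for 19938 genes. Brown points right of the dotted line at 0.7, with a few list genes left of it, are fibroblast genes that passed; blue points are the other genes that passed. Lgr5 stands at 5.31 with r = 0.53, and Srgn is lowest at −3.86.

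Among the fibroblast genes, 34 of the 66 on the list rose and 0 fell, with 32 not called and a median of 2.10 against 0.0952 for all genes. In 62 of the 66 the lines of the 2 groups did not overlap, beside 55.8% of all genes. Asporin (Aspn), a small matrix proteoglycan, read 3394, 2210 and 3273 in Sox2 mGS and 110, 200 and 190 in iPS (4.17 ± 0.75, adjusted p = 0.0013). Col12a1, a fibril-associated collagen, rose by 3.70 ± 0.73, lumican (Lum) by 3.32 ± 0.87, decorin (Dcn) by 3.30 ± 0.68 and the PDGF receptor gene Pdgfrb by 3.23 ± 0.70. Periostin (Postn) rose by 3.40 ± 0.88, a call lost without iPS 1 (3.03). Outside the list, 557 of the 1506 tracking genes rose and 6 fell, with a median of 0.63. The highest were Ccn4, a matricellular protein (3.86 ± 0.95), dermatopontin (Dpt, 3.77 ± 0.92), cholesterol 25-hydroxylase (Ch25h, 3.63 ± 0.76), interleukin 6 (Il6, 3.59 ± 0.69), Csgalnact1, which acts in chondroitin sulphate synthesis (3.46 ± 0.69), and the oncostatin M receptor gene Osmr (3.40 ± 0.85). With the feeder score as a covariate, Lum (1.10), Postn (1.01) and Dpt (1.41) lost their calls among these 12, as did Col1a1 (0.52) and Thy1 (0.63). With that covariate, 11 of the 66 list genes were higher and 10 lower, and 120 and 125 of the 1506 tracking genes. The score is the mean of the same 66 genes, and the tracking genes were picked by their r with it. A loss of calls in both directions is thus largely built into that fit, and nothing is read from it for these genes. Without Sox2 mGS 3, iPS 1 or iPS 2, the list genes that rose were 22, 23 and 22 and the tracking genes 275, 322 and 353.

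Outside fibroblast genes, the largest fitted rise was that of Lgr5. It was 3248, 2979 and 4562 in Sox2 mGS 1, 2 and 3 and 86.1, 111 and 73.7 in iPS 1, 2 and 5, so that every iPS line was below background. The difference was 5.31 ± 0.61 (adjusted p = 6.6e-05), at least 21.96-fold when the iPS mean is set at the background level. The 6 Sox2 mGS arrays read 2910 to 5079 and the 6 iPS arrays 69.2 to 120, and the call held without any 1 of the 6 lines. Oct4 mGS lines 1 and 2 had 3270 and 2612, and Oct4 mGS 3 had 368. In the 11 lines of ES, mGS, Dnmt mGS and Dmrt mGS it was 84.0 to 445, the last in mGS 2, and in GS cells the mean was 155. Against the equal-weighted mean of the other induced routes, Lgr5 was higher by 3.72 ± 0.50 (adjusted p = 0.00035), and against ES by 4.95 ± 0.61 (adjusted p = 0.0001).

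**Figure D2:**
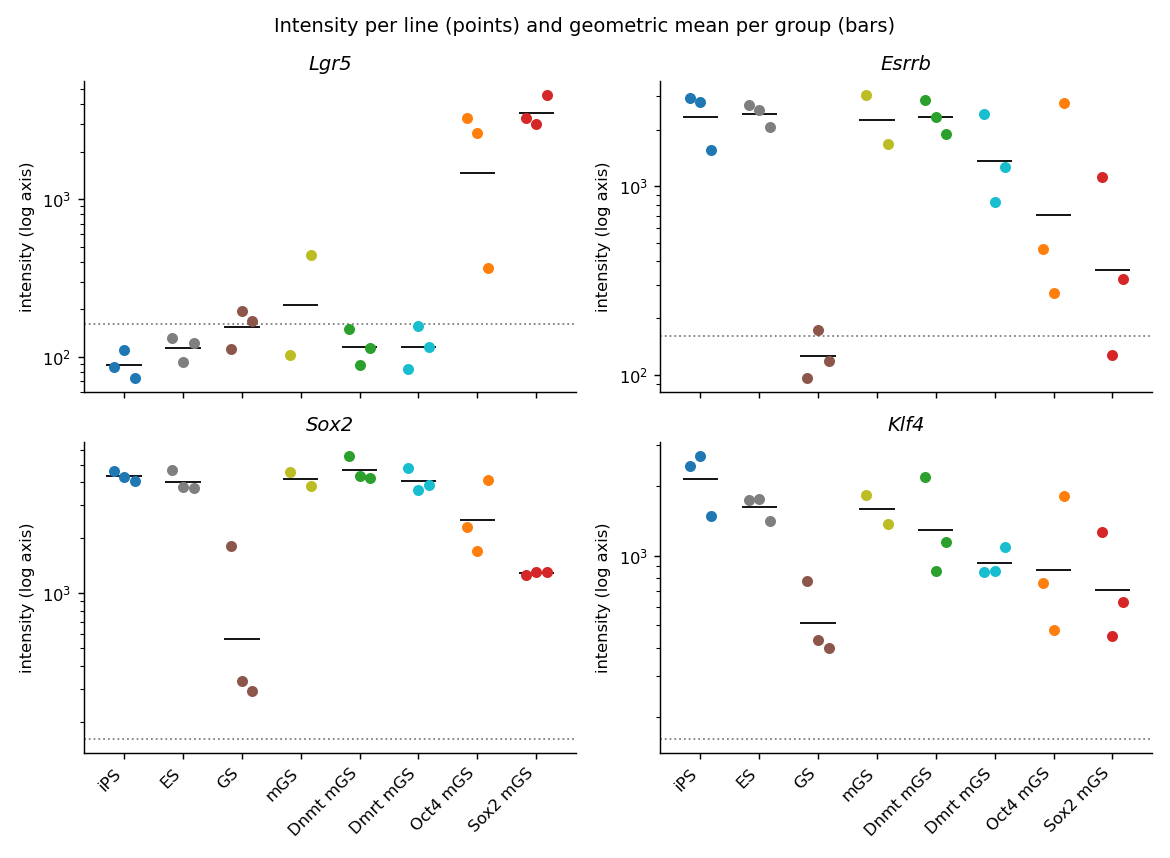
Intensity (log axis) of Lgr5, Esrrb, Sox2 and Klf4 in each of the 23 lines (points, mean of 2 log2 cultures) with the geometric mean of each group (bars); the dotted line is the background level of 160.9. The 3 Sox2 mGS lines and Oct4 mGS 1 and 2 are high in Lgr5, Sox2 mGS 2 and 3 and Oct4 mGS 1 and 2 lie below the ES, mGS, Dnmt mGS and Dmrt mGS lines in Esrrb, and the 3 Sox2 mGS lines lie close together in Sox2, at 1253 to 1303.

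Lines with a like feeder score did not share the level of Lgr5. Sox2 mGS 2 had a score of 1387 and Dnmt mGS 3 one of 1326. Col1a1 was 2410 in the first and 2673 in the second, while Lgr5 was 2979 and 114. Dmrt mGS 2, at a score of 1123, had 1823 of Col1a1 and 157 of Lgr5, and ES BRC1, at 1074, had 2032 and 121. On the other side, Oct4 mGS 1 and 2, at scores of 1481 and 1187, had the high Lgr5 given above. Oct4 mGS 3, at 642, was lower in both. Whether feeders add to the level of Lgr5 was not tested. The r of Lgr5 with the score was 0.53 over the 14 lines, which include the Oct4 mGS lines, and with the score as a covariate the difference from iPS was 4.54 (adjusted p = 0.001).

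**Figure D3:**
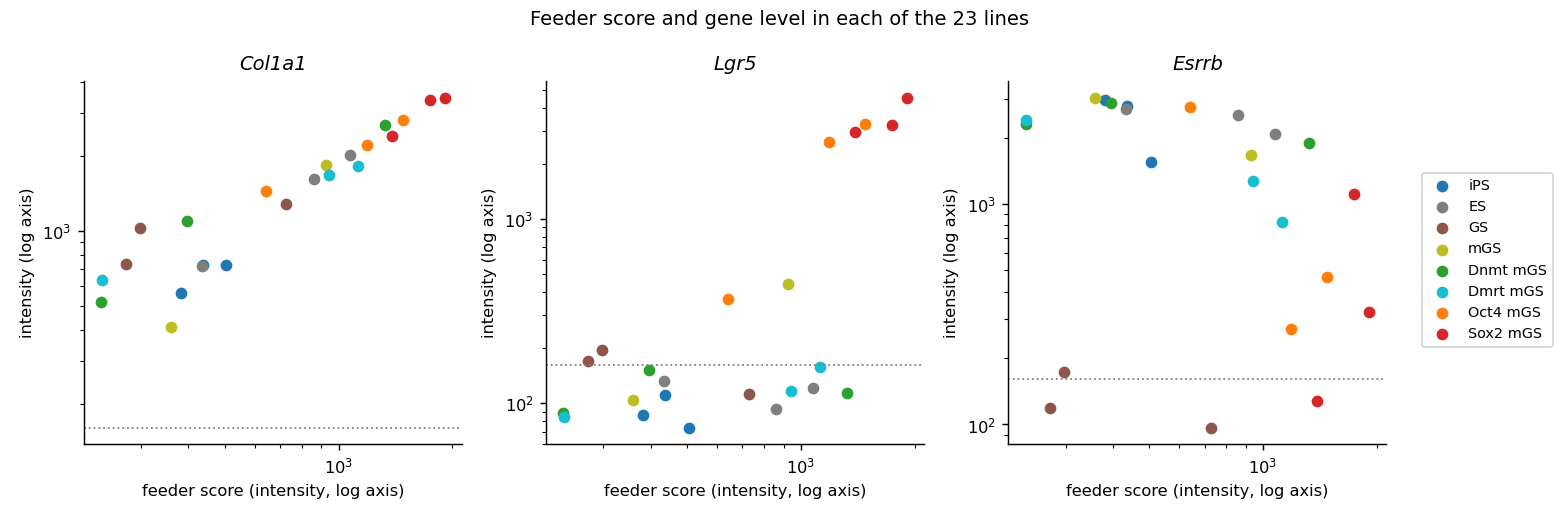
Level of Col1a1, Lgr5 and Esrrb (vertical, log axes) against the feeder score (horizontal, log axis) in each of the 23 lines, coloured by group; the dotted line is the background level. Col1a1 climbs with the score across groups, Lgr5 is high in the 3 Sox2 mGS lines and in Oct4 mGS 1 and 2 alone, and Esrrb at like scores ranges from 127 in Sox2 mGS 2 to 1898 in Dnmt mGS 3.

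The next 11 genes outside fibroblast genes were taken by their fitted rise, an order that says nothing among genes whose iPS level is below background. Adamts5, a protease that cuts aggrecan, read 1024, 903 and 1229 in Sox2 mGS and 68.7, 97.6 and 73.4 in iPS (3.72 ± 0.55, at least 6.49-fold, adjusted p = 0.00035). C1qtnf3, a secreted protein of the C1q and TNF family, read 994, 833 and 1469 against 86.7, 102 and 84.2 (3.56 ± 0.35, at least 6.63-fold, adjusted p = 1.9e-05). That the lines of the groups do not overlap was a condition for entering this set, and it holds for 55.8% of all genes. Oct4 mGS 1, 2 and 3 had 815, 677 and 341 of Adamts5 and 685, 490 and 182 of C1qtnf3, and the 11 lines of ES, mGS, Dnmt mGS and Dmrt mGS stayed at or below 290 and 151. Fibrillin 2 (Fbn2) rose by 2.62 ± 0.35 (at least 3.43-fold), pentraxin 3 (Ptx3) by 2.58 ± 0.36 (at least 2.17-fold), the membrane protein gene Lrrc15 by 2.37 ± 0.32 and the protease inhibitor gene Serpina3n by 2.30 ± 0.56 (at least 3.02-fold). The zinc finger factor Hivep2 rose by 2.13 ± 0.51 (at least 2.92-fold), cathepsin K (Ctsk) by 2.12 ± 0.41 (at least 2.70-fold), Lrrn1 by 2.09 ± 0.40 (at least 2.84-fold), the ubiquitin ligase gene Rnf122 by 2.07 ± 0.25 and Serpinb9b by 2.00 ± 0.44.

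All 12 calls held without any 1 of the 6 lines, and in 9 of the 12 the iPS mean was below background. With the feeder score as a covariate 9 of 12 kept their call, Hivep2, Serpina3n and Serpinb9b being the others (1.43, 1.86 and 1.52, adjusted p of 0.092, 0.064 and 0.052). Over all genes, 2168 of the 4708 calls were kept in the same direction. The 12 were picked by their large rise in the same comparison, so these counts are no separate support. An r of 0.5 to 0.7 with the score was seen for 6 of the 12, Lgr5, Adamts5, C1qtnf3, Fbn2, Lrrc15 and Lrrn1, which a lower limit of 0.5 would place among fibroblast genes. Rnf122 (r = 0.36) read 2262, 1858 and 2309 in Sox2 mGS and 386, 552 and 609 in iPS, and Oct4 mGS 1 and 2 were between, at 1398 and 1235.

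Sox2, the gene supplied to the route, was lower in Sox2 mGS. It was 1253, 1302 and 1303 in lines 1, 2 and 3 and 4627, 4297 and 4071 in iPS (−1.75 ± 0.45, adjusted p = 0.011), and the groups did not overlap. The call held without any 1 line and with the feeder score as a covariate (−1.84, adjusted p = 0.037). The 11 lines of ES, mGS, Dnmt mGS and Dmrt mGS read 3657 to 5544, and Oct4 mGS 1, 2 and 3 read 2289, 1689 and 4095. Whether the probes for Sox2 also read RNA from either virus is not stated here. Of the other factors given to iPS cells, Klf4 was 1266, 450 and 629 against 2452, 2689 and 1490 (−1.59 ± 0.45, adjusted p = 0.017), a call lost without Sox2 mGS 2 (−1.26), Sox2 mGS 3 (−1.51), iPS 1 (−1.50) or iPS 2 (−1.43). With the feeder score as a covariate the difference of Klf4 was −1.55 (adjusted p = 0.064). Myc was 697 to 1020 against 1116 to 1245 (−0.46 ± 1.04, adjusted p = 0.77), and its r with the score was 0.79, so that the covariate moved it to −3.34 (adjusted p = 0.0022). Among the genes targeted in the other routes, the maintenance methyltransferase gene Dnmt1 differed by −0.05 ± 0.35 (adjusted p = 0.93) and Dmrt1, a germ cell transcription factor, by −0.67 ± 0.42 (adjusted p = 0.25, or −1.49 and 0.026 with the covariate).

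The promoters of 4 of the naive or core factor genes that fell are shown. Among the Sox2 mGS lines, Klf4, Tfcp2l1 and Esrrb were highest in Sox2 mGS 1 and lowest in Sox2 mGS 2, while Sox2 was even. RefSeq start sites on GRCm38.p6 gave 1 window of 250 bases before the start for Sox2, Klf4 and Tfcp2l1 each and 2 for Esrrb. Capitals mark matches, on either strand, to ATGCAAA (part of the octamer bound by Oct4), CATTGT (a Sox site), AAGGTCA (bound by Esrrb), TATAAA (bound by the TATA-binding protein) and GGGCGG (a GC box).
Sox2, chr3:34649745-34649994, plus strand: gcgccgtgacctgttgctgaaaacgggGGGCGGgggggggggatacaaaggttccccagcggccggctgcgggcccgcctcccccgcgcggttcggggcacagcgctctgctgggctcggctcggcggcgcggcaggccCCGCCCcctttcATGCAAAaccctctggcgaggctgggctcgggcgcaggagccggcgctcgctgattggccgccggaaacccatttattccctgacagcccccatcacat
Klf4, chr4:55532476-55532725, minus strand: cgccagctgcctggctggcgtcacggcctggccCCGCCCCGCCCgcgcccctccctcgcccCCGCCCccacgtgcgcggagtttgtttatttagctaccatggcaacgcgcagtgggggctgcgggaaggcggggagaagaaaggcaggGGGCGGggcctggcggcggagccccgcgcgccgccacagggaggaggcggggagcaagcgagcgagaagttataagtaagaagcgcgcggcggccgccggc
Tfcp2l1, chr1:118627695-118627944, plus strand: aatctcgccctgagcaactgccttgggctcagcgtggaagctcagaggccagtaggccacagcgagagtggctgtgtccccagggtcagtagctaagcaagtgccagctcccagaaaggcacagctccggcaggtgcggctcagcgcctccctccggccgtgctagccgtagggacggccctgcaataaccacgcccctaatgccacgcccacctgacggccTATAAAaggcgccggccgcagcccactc
Esrrb start 1, chr12:86360867-86361116, plus strand: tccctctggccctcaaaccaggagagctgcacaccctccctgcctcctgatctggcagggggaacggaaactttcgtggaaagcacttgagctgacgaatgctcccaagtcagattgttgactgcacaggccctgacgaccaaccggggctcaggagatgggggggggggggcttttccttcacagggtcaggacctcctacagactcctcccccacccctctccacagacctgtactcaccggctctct
Esrrb start 2, chr12:86421394-86421643, plus strand: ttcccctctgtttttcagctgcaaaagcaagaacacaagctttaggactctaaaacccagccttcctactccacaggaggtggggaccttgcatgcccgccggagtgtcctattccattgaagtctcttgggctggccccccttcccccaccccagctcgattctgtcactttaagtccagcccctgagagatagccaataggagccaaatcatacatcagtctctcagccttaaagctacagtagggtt
The Sox2 window held 1 match to ATGCAAA and 2 to the GC box, that of Klf4 4 GC boxes and that of Tfcp2l1 1 match to TATAAA. Neither Esrrb window held any of the 5 motifs. Of 32851 windows of this length, 4.12% held ATGCAAA, 10.7% CATTGT, 4.08% AAGGTCA, 12.4% TATAAA and 32.7% GGGCGG. The windows of Sox2 and Klf4 were 72.0% and 74.0% GC, with 27 and 32 CpG, and those of Esrrb 60.8% and 52.0%, with 6 and 3. These matches describe the letters only.

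Genes of the naive network were lower as a list. Of 32 measured, 0 rose, 15 fell and 17 were not called, with a median of −1.33, beside 9.22% of all genes that fell and a median of 0.0952. The count of 15 was 6 without Sox2 mGS 2, 7 without Sox2 mGS 3, 8 without iPS 1 and 9 without iPS 2, against 18 without Sox2 mGS 1 and 14 without iPS 5. Esrrb, a nuclear receptor of the naive network, was 1116, 127 and 324 in Sox2 mGS 1, 2 and 3 and 2957, 2797 and 1558 in iPS (−2.71 ± 0.72, adjusted p = 0.013). The groups did not overlap, but the Sox2 mGS lines were far apart, with line 1 nearest to iPS and line 2 below background. Without Sox2 mGS 2 the call was lost (−1.96), and with the feeder score as a covariate it was −1.73 (adjusted p = 0.14). Esrrb was lower than in the other induced routes by −1.87 ± 0.59 (adjusted p = 0.042) and than in ES by −2.76 ± 0.72 (adjusted p = 0.016). Oct4 mGS 1, 2 and 3 had 464, 271 and 2770, and the 11 lines of ES, mGS, Dnmt mGS and Dmrt mGS 830 to 3043, a range that holds Sox2 mGS 1.

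Besides Sox2, 5 members fell and held their call without any 1 line. Jam2, a junctional adhesion molecule of ES cells, was 990, 271 and 425 against 3163, 3152 and 1799 (−2.43 ± 0.51, adjusted p = 0.0032). Dppa5a, an RNA-binding marker of naive cells, was 4431, 1407 and 1893 against 8540, 8304 and 7844 (−1.85 ± 0.38, adjusted p = 0.0031). The Krüppel-like factors Klf2 (−1.66 ± 0.39) and Klf5 (−0.96 ± 0.18) fell, as did Eras, a Ras-like GTPase of ES cells (−1.56 ± 0.22). Of these 5, Klf2 alone lost its call with the feeder score as a covariate (−1.11, adjusted p = 0.079). Eras stood apart in its r with the feeder score, which at 0.699 was just under the limit for a fibroblast gene, while its level fell.

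The calls of the other 9 that fell were each lost when any 1 of 2 to 5 lines was left out, or Sox2 mGS 2 alone for Esrrb, while the fitted differences stayed negative. Tcl1, a co-activator of Akt, differed by −2.71 ± 0.91, a call lost without Sox2 mGS 2 (−2.15), Sox2 mGS 3 (−2.51), iPS 1 (−2.44) or iPS 2 (−2.59). Tfcp2l1, a naive transcription factor, was 643, 221 and 278 against 2387, 2288 and 1349 (−2.51 ± 0.67), and its call was lost without Sox2 mGS 2 (−2.20) or Sox2 mGS 3 (−2.37). Fgf4, the growth factor that ES cells secrete, differed by −1.26 ± 0.36, lost without Sox2 mGS 2 (−1.19), Sox2 mGS 3 (−1.19) or iPS 1 (−1.11). With the covariate the 3 differed by −0.80, −1.27 and −0.65, none called. The nuclear receptor genes Nr5a2 (−2.06) and Nr0b1 (−1.82), the F-box gene Fbxo15 (−1.47) and Morc1 (−2.16) fell too, and each call was lost in 4 or 5 of the 6 fits that left out a line. Zfp42 (−1.31 ± 0.51, adjusted p = 0.071, or −1.71 and 0.044 without Sox2 mGS 1) and Tbx3 (−1.74 ± 0.63, adjusted p = 0.055) were not called, nor were Tdgf1, the Nodal co-receptor (−0.39 ± 0.27), Dppa2 (−0.22 ± 0.18) or Sall4 (0.31 ± 0.11). With the feeder score as a covariate 8 of the 32 fell and 0 rose, and 4 of the 15 that fell had an r of −0.7 or below with it.

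The 3 Sox2 mGS lines were not alike in these genes. Of the 32 measured, 27 were highest in Sox2 mGS 1 among the 3 lines and 25 were lowest in Sox2 mGS 2. Among iPS lines, 24 of 32 were highest in iPS 1 and 24 lowest in iPS 5. Over 14298 genes above background in at least 1 group, 160 were more than 2-fold higher in Sox2 mGS 1 than the mean of the other two lines and 70 lower, against 20 and 89 in Sox2 mGS 2 and 11 and 3 in Sox2 mGS 3. The cultures of iPS 5 differed by more than 2-fold in 41 genes, and those of the other 5 lines in 0 to 5.

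Beyond the pluripotency list, the 12 lowest genes outside fibroblast genes included Mylpf, Khdc3 and Ooep. Mylpf, a myosin light chain of fast muscle, was 116, 37.9 and 48.7 in Sox2 mGS and 764, 866 and 593 in iPS (−3.61 ± 0.42, at least 4.55-fold lower, adjusted p = 7.1e-05). Khdc3 and Ooep, proteins of the maternal complex of the egg, fell by 3.30 ± 0.64 (at least 2.56-fold lower) and 2.66 ± 0.54 on the log2 scale. Septin1, of the septin cytoskeleton, fell by 2.79 ± 0.64 and the predicted gene Gm6083 by 2.61 ± 0.43. Rnu5g, a U5 small nuclear RNA gene of the spliceosome, was 80.1, 82.4 and 75.1 against 436, 503 and 440 (−2.53 ± 0.31, at least 2.85-fold lower). It was also 69.3 to 86.3 in the Oct4 mGS lines and 356 in the GS mean. Srgn, the proteoglycan serglycin, was 402, 281 and 317 against 15197, 1224 and 5938 (−3.86 ± 0.95), so the iPS lines themselves spanned a wide range, and the call was lost without iPS 1 (−3.03) and with the feeder score as a covariate (−2.56). In the other comparisons 8 of the 12 fell against the other routes and 9 against ES, and of the 12 highest 9 rose in each. Over all genes, 8.16% fell and 5.99% rose against the other routes, and 6.83% and 7.95% against ES. Both sets were picked by their values in the same Sox2 mGS lines, so these counts are no separate support.

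**Figure D4:**
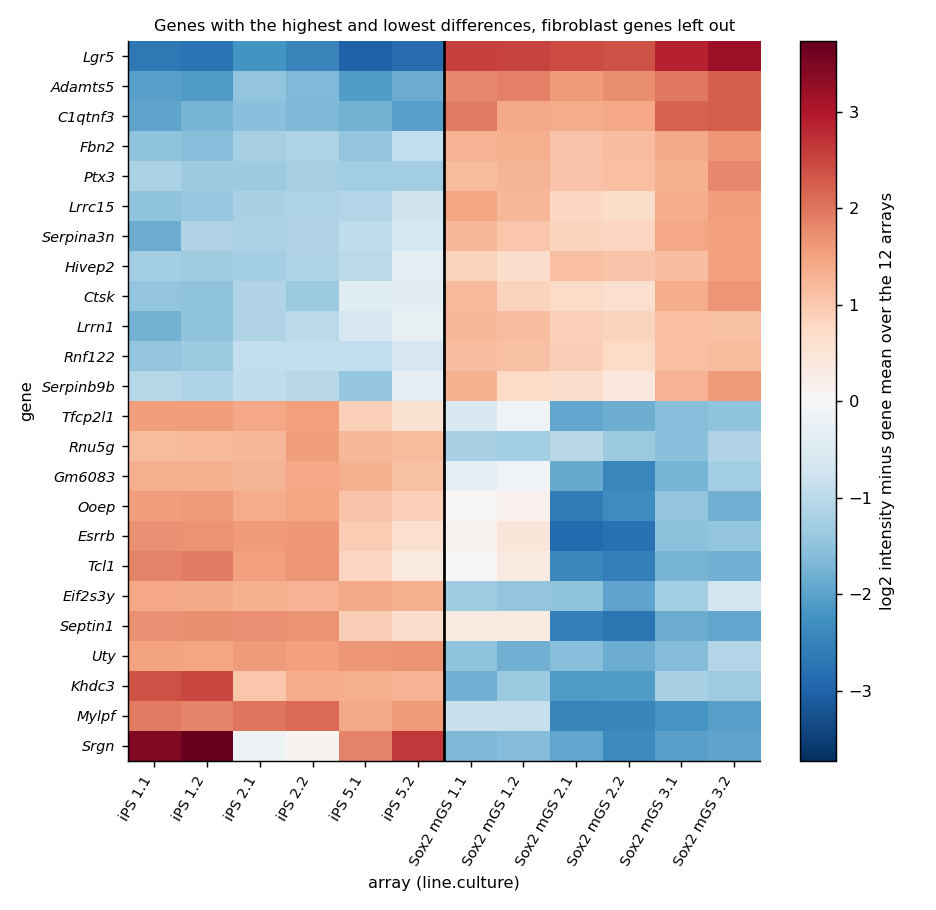
Log2 intensity minus the gene's mean over the 12 arrays, for the 12 highest and 12 lowest called genes outside fibroblast genes (rows) in each culture of the 6 lines (columns). The rising genes are even across the Sox2 mGS lines, while Esrrb, Tcl1, Ooep, Septin1 and Gm6083 are less low in Sox2 mGS 1 than in lines 2 and 3, and Srgn varies among iPS lines.

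Of 5 measured Y-linked genes 2 fell and 3 were not called, beside 9.22% of all genes that fell. With Xist the list had a median of −1.35. Uty, a histone demethylase family gene, was 74.7, 71.3 and 91.9 in Sox2 mGS against 657, 687 and 731 in iPS (−3.13 ± 0.90, at least 4.30-fold lower, adjusted p = 0.019), and Eif2s3y, a translation initiation factor gene, was 170, 135 and 227 against 1208, 1113 and 1176 (−2.75 ± 0.95, adjusted p = 0.044). Each call was lost without any 1 of the 6 lines, with values of −3.24 to −3.06 and −2.94 to −2.57. The adjusted p of these limma fits was 0.051 to 0.052 for Uty and 0.085 to 0.107 for Eif2s3y. The fit takes its spread from the lines of all groups, not from these 6 alone. In the 11 lines of ES, mGS, Dnmt mGS and Dmrt mGS, Uty was 28.8 to 990 and Eif2s3y 27.6 to 2207, ranges that hold both groups. Kdm5d, another Y-linked histone demethylase gene, was 186 to 228 against 164 to 204 (0.18 ± 0.39, adjusted p = 0.76), close to background. Zfy1, a zinc finger gene of the Y chromosome, was 27.9, 20.0 and 27.1 against 307, 66.4 and 268 (−2.83 ± 1.05, adjusted p = 0.058), and Usp9y was below background in all 6 lines. Xist, the RNA of the inactive X, was 730, 480 and 796 against 109, 134 and 229, with an r of 0.92 with the feeder score (2.13 ± 0.67, adjusted p = 0.029, or 0.18 with the score as a covariate). Its call was lost without Sox2 mGS 1 (2.05), Sox2 mGS 3 (1.98), iPS 1 (1.90) or iPS 2 (2.04).

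The Wnt pathway was read as the setting of Lgr5. Of 46 measured genes 12 rose and 4 fell, 7 and 4 outside fibroblast genes, with a median of 0.14, beside 14.4% of all genes that rose and 9.22% that fell. The 12 and 4 became 3 and 3 with the feeder score as a covariate, and 4 to 8 rose and 1 to 5 fell when each line was left out in turn, with 4 and 1 without iPS 1. Besides Lgr5, the intracellular Wnt inhibitor Nkd1 rose from 152 to 192 in iPS lines to 252 to 268 in Sox2 mGS lines (0.60 ± 0.12, adjusted p = 0.0027), held without any 1 line. Its relative Nkd2 rose by 1.03 ± 0.29 and the secreted Wnt antagonist Sfrp2 by 1.49 ± 0.41. The transcription factor Lef1 fell by 1.17 ± 0.40 and the receptor Fzd5 by 1.14 ± 0.31 on the log2 scale. None of these last 4 was called with the feeder score as a covariate. The R-spondin gene Rspo3 rose too. Its call was lost without Sox2 mGS 1 (0.81), Sox2 mGS 3 (0.87) or iPS 1 (0.83). The call of Nkd2 was lost without Sox2 mGS 3, iPS 1 or iPS 2 (0.88 to 1.02) and that of Sfrp2 without Sox2 mGS 2, iPS 1 or iPS 2 (1.25 to 1.45). That of Fzd5 was lost without Sox2 mGS 3, iPS 1 or iPS 2 (−1.07 to −1.01) and that of Lef1 without any 1 line but Sox2 mGS 3 (−1.26 to −0.96). Wls, which carries Wnt proteins out of the cell (1.95 ± 0.59, r = 0.75), and Wnt5a (2.42 ± 0.74, r = 0.90) belong to the fibroblast genes, and each lost its call without any 1 line but Sox2 mGS 2 (1.82 to 2.03 and 2.24 to 2.53). Axin2, a feedback target of the pathway, was 261 to 337 against 293 to 410 (−0.27 ± 0.22, adjusted p = 0.38), the R-spondin receptor Lgr4 2484 to 2693 against 1968 to 2368 (0.29 ± 0.21, adjusted p = 0.31), and the ubiquitin ligase gene Znrf3, on which R-spondins act, differed by −0.04 ± 0.09.

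In the LIF and Stat3 list 5 of 14 rose and 4 fell, 4 and 4 outside fibroblast genes, beside 14.4% and 9.22% of all genes. The 4 that fell became 0 without Sox2 mGS 3, iPS 1 or iPS 2, 1 without Sox2 mGS 1 and 2 without Sox2 mGS 2 or iPS 5, and the 5 that rose became 3 without Sox2 mGS 3 or iPS 1. The kinase genes Jak2 (904, 743 and 940 against 242, 236 and 362, 1.64 ± 0.26, adjusted p = 0.00063) and Jak1 (0.70 ± 0.14) rose and held without any 1 line. Osmr, another riser, is among the fibroblast genes. Lif rose too, a call lost without Sox2 mGS 3 (0.80) or iPS 1 (0.78). The LIF receptor gene Lifr fell. That call was lost without Sox2 mGS 2 (−0.68), Sox2 mGS 3 (−0.83), iPS 1 (−0.75) or iPS 2 (−0.90). Socs3, a feedback inhibitor induced by Stat3, was 618, 588 and 659 against 1342, 1212 and 1254 (−1.03 ± 0.30, adjusted p = 0.022), a call lost without any 1 line (−1.07 to −0.99). Stat3 itself differed by 0.39 ± 0.16 (adjusted p = 0.084). In the FGF and ERK list 3 of 22 rose and 2 fell, but 1 rose without Sox2 mGS 1, Sox2 mGS 3, iPS 1 or iPS 2, and 0 fell without iPS 1. Egr1, an immediate early gene of ERK signalling, was 4210, 4039 and 4324 against 1891, 2470 and 2465 (0.89 ± 0.12, adjusted p = 0.00019), and was higher than in the other routes (1.28, adjusted p = 3.6e-06) and ES (1.16, adjusted p = 2.6e-05).

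**Figure D5:**
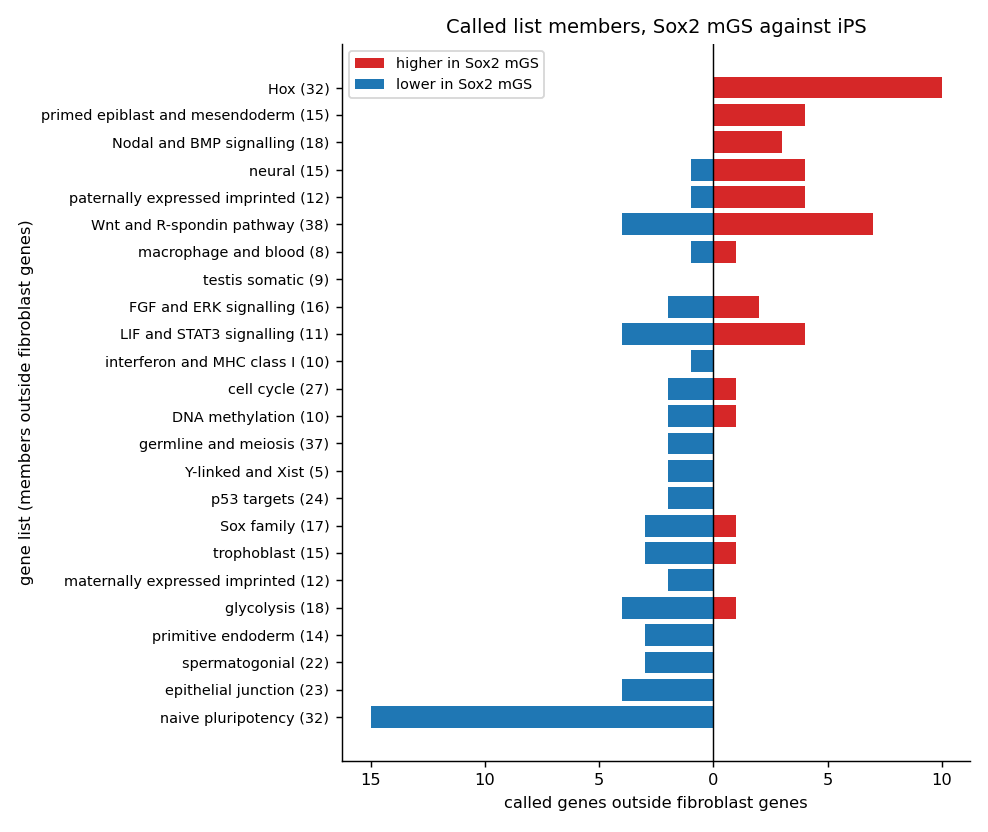
Number of called genes outside fibroblast genes that were higher (red, right) or lower (blue, left) in Sox2 mGS than in iPS, for 24 gene lists; the number of members outside fibroblast genes stands beside each name. The naive pluripotency list has 15 lower and 0 higher, and the Hox list 10 higher and 0 lower.

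Most genes of later embryonic states were not called, as was true of all genes, of which 23.6% passed. The share that rose was 22.2% of primed epiblast and mesendoderm, 26.3% of neural and 35.1% of Hox genes. Of all genes 14.4% rose. Of 18 primed epiblast and mesendoderm genes 4 rose and 0 fell, or 2 and 0 without any 1 line but Sox2 mGS 1, with the zinc finger factors Sall2 (285, 480 and 543 against 97.7, 144 and 128, 1.79 ± 0.36) and Zic2 (1.21 ± 0.31) holding without any 1 line. Otx2, a primed epiblast factor, rose by 1.20 ± 0.39, a call lost without any 1 of the 6 lines (1.07 to 1.29). The epiblast growth factor gene Fgf5 was 639, 1753 and 1739 against 147, 649 and 230 (2.16 ± 1.12, adjusted p = 0.16), so the groups overlapped. Of 19 neural genes 5 rose and 1 fell, 2 and 0 without Sox2 mGS 3, 3 and 1 without iPS 5 and 1 and 2 with the feeder score as a covariate, beside 14.4% and 9.22% of all genes. The adhesion molecule gene Ncam1 (1583, 948 and 1417 against 573, 532 and 386, 1.39 ± 0.27) and the eye and brain factor Pax6 (1.06 ± 0.26) rose in a call that held without any 1 line. With the feeder score as a covariate Sall2 and Ncam1 kept their calls, while Zic2 (0.66), Otx2 (0.51) and Pax6 (0.79) did not. Of 37 Hox genes, which give position along the body axis, 13 rose and 0 fell, 10 of them outside fibroblast genes, beside 14.4% of all genes that rose, but 15 of the 37 were above background in both groups. The 13 became 8 without Sox2 mGS 3, 9 to 12 without another line, 5 with 1 lower with the feeder score as a covariate, and 6 with 1 lower when each array was centred on its median. Hoxd8 was 267, 229 and 288 against 105, 110 and 103 (1.29 ± 0.15, adjusted p = 5.6e-05) with an r of 0.40, and Hoxb9 286, 260 and 318 against 162, 165 and 158 (0.83 ± 0.19). With the covariate Hoxd8 differed by 1.15 (adjusted p = 0.001) and Hoxb9 by 0.52 (adjusted p = 0.081).

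Most imprinted genes and genes of the methylation machinery were not called, as was true of all genes. Of 20 paternally expressed imprinted genes 6 rose and 1 fell, beside 14.4% and 9.22% of all genes, or 3 and 0 without Sox2 mGS 3, 3 and 1 without iPS 1, 4 and 0 without iPS 5, 4 and 2 without Sox2 mGS 1 and 1 and 1 with the feeder score as a covariate. Necdin (Ndn) rose by 1.99 ± 0.50 with an r of 0.91 and Mest by 1.16 ± 0.31 with an r of 0.78, both among the fibroblast genes and neither called with the feeder score as a covariate (0.67 and 0.37). Of 16 maternally expressed genes 2 rose and 2 fell, the lower ones being the cell cycle inhibitor Cdkn1c (245, 233 and 251 against 317, 350 and 457, −0.61 ± 0.15) and Tssc4 (−0.42 ± 0.09). Dnmt3l, the cofactor of de novo methylation in germ cells, was 2936, 1162 and 1390 against 5498, 4643 and 4803 (−1.56 ± 0.29, adjusted p = 0.0016), and with the score as a covariate it was −1.79 (adjusted p = 0.0046). The 5-methylcytosine dioxygenase gene Tet3 rose by 0.69 ± 0.12. Both held without any 1 line.

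The remaining lists stand beside the same 14.4% of all genes that rose and 9.22% that fell, and nothing is read from counts this small. Glycolysis had 1 of 18 higher and 4 lower, with the lactate dehydrogenase gene Ldhb at 783, 730 and 605 against 2487, 2265 and 2159 (−1.71 ± 0.37, adjusted p = 0.0041). Epithelial junction genes had 0 of 25 higher and 4 lower, with claudin 4 (Cldn4) at 263, 862 and 448 against 1325, 1327 and 1987 (−1.70 ± 0.40) and F11r, which encodes the adhesion molecule JAM-A, at −0.56 ± 0.12. Of 25 Nodal and BMP genes 4 rose and 0 fell, among them the BMP receptor Bmpr2 (1.09 ± 0.19, r = 0.74) and the activin receptor Acvr2a (0.47 ± 0.12, or 0.32 and not called when each array was centred on its median). Of 27 spermatogonial genes 1 rose and 3 fell, the riser being Gfra1 (1.79 ± 0.25, adjusted p = 0.00019), whose r with the feeder score was 0.91. Of 37 germline and meiosis genes 0 rose and 2 fell, with the piRNA factor Tdrd12 at 308, 150 and 158 against 825, 570 and 693 (−1.83 ± 0.36). The calls of these 7 genes held without any 1 line, and those of Ldhb (−1.14) and Cldn4 (−1.31) were lost with the feeder score as a covariate. Sox2 mGS carried a p53 knock-down, and 1 of 30 p53 targets rose and 2 fell, with a median of −0.23, and with the feeder score as a covariate 1 rose and 10 fell, beside 9.71% and 6.3% of all genes. Without Sox2 mGS 3 none of the 3 calls was left, and the 2 that fell were 7 when each array was centred on its median. The other lists were cell cycle (1 of 34 higher and 2 lower), trophoblast (1 of 16 and 3), primitive endoderm (2 of 20 and 3), Sox family (1 of 19 and 3), interferon and MHC class I (1 of 14 and 1), macrophage and blood (1 of 8 and 1), testis somatic (0 of 10 and 0) and a 2-cell-like state (0 of 2 and 0).

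Against the equal-weighted mean of the Dnmt, Dmrt and Oct4 routes, which share the GS origin and p53 knock-down, 1195 genes rose (5.99%) and 1627 fell (8.16%) in Sox2 mGS. That total of 2822 was 1466 without Sox2 mGS 1, 1441 without Sox2 mGS 2, 532 without Sox2 mGS 3 and 905 with the feeder score as a covariate. Mylpf (−2.40 ± 0.34, adjusted p = 0.00056), C1qtnf3 (2.71 ± 0.29, adjusted p = 5.6e-05) and Rnf122 (1.56 ± 0.20, adjusted p = 0.00029) differed there as well as from iPS. Against ES, 1586 rose (7.95%) and 1362 fell (6.83%), 2948 in all, or 1916 without Sox2 mGS 2 and 1433 without Sox2 mGS 3. With median centring 955 rose and 2237 fell against ES, and with quantile normalization 1338 and 1820. Rnf122 (2.09 ± 0.25), Hoxd8 (1.16, adjusted p = 0.00012) and Tdrd12 (−2.54, adjusted p = 0.00031) were among those that passed. These comparisons share the Sox2 mGS lines with that against iPS.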

How the data were processed

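Total RNA of 46 cultures was measured on whole-transcript arrays, and the authors deposited 1 linear intensity per probe set and array. How the intensities were normalized, and whether a constant was added, is not stated in the sources at hand. The genome build mm9 is listed, per the submitters' processing notes. Of 28856 probe sets, 21789 had 1 gene symbol and were kept, 1621 had several and 5446 had none; 999 genes had several probe sets, of which the brightest on average stood for the gene, leaving 19938 genes. Values ran from 16.0 to 27420, and log2 was taken with no offset.

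The 2 cultures of a line were averaged, and all 23 lines entered 1 limma fit (limma 3.58.1, R 4.3.3, lmFit and eBayes, 15 residual and 2.71 prior degrees of freedom), with Benjamini-Hochberg adjustment over all genes at 0.05. Folds written as at least N-fold set the dimmer group at the background level. On simulated data with independent normal noise, 67, 67 and 66 genes were changed by 1.5, 2 and 4-fold. Of these, 61.2%, 85.1% and 93.9% were called, with 8 false calls among 19938 genes. Far fewer genes were changed there than passed in the data. Variation shared by many genes of a line was not simulated, so these are not the rates of the real comparison. The members and the 26 lists were chosen with earlier results of these data known. Named genes were Lgr5, Esrrb, the factors and targets of the routes, the 12 highest and 12 lowest called genes outside fibroblast genes whose lines do not overlap, up to 4 called members per list (with up to 2 in the other direction), and 6 fibroblast-list and 6 tracking genes; further list members are given as values. Alternatives were all arrays as independent samples, line as a random block (statmod 1.5.0), the 6 lines alone, quantile normalization, median centring, no dim genes, eBayes with a trend, averaged probe sets, clone or culture number as a block, the feeder score as a covariate, other limits on r, and leaving out each line. Promoter windows were those of RefSeq on GRCm38.p6. Python 3.11.15 with pandas 2.3.3, numpy 2.4.6 and matplotlib 3.10.9 made the tables and plots.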

Additional observations from a re-analysis of the deposited data

Results flagged for a closer look

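Of the 26 markers, factors, 12 highest and 12 lowest genes that differed between Sox2 mGS and iPS, 18 also differed between Sox2 mGS and the mean of the Dnmt, Dmrt and Oct4 routes in limma's test. With the named list members included, such as Egr1, it was 55 of 121. Over all genes, 5.99% rose and 8.16% fell in that test. On the log2 scale, Sox2 mGS was higher in Lgr5: (3.72), Adamts5: (1.91), C1qtnf3: (2.71), Fbn2: (1.52), Ptx3: (1.18), Lrrc15: (1.52), Lrrn1: (1.52), Rnf122: (1.56) and Serpinb9b: (1.33). It was lower in Esrrb: (−1.87), Sox2: (−1.50), Mylpf: (−2.40), Khdc3: (−2.0), Septin1: (−2.0), Ooep: (−1.77), Gm6083: (−1.87), Rnu5g: (−0.80) and Tfcp2l1: (−1.98). These contrasts share the Sox2 mGS lines with the comparison against iPS. Most of the genes were picked by their values there, so the counts are no separate support.

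Single arrays stood apart from the other 5 of their group in 14 of 276 groups screened (138 named genes in each group), by the gap to the nearest array as a share of the group's range, which chance alone passes in about 1 of 20 groups. The count is near that rate, and the 6 arrays are 2 cultures of each of 3 lines, not 6 independent samples. In Sox2 mGS these were Pou5f1 (0.678), Sox17 (0.631), Zic2 (0.756), Tssc4 (0.648) and Ldha (0.653). In iPS they were Hivep2 (0.662), Rnu5g (0.802), Krt7 (0.634), Bmpr2 (0.718), Bmpr1a (0.691), Pim3 (0.633), Hk2 (0.664), Cd68 (0.749) and Csgalnact1 (0.647).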

How the results depend on the processing

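The number of genes that passed depended on the setting. For Sox2 mGS against iPS, the 4708 genes became 9162 with all 46 arrays as independent samples and 7845 with the 6 lines alone, and ranged from 2420 to 3550 when each line was left out in turn. Outside fibroblast genes 4111 became 8076 and 6730, with a range of 2121 to 3078, and 3586 and 4320 with the limit on r at 0.5 and 0.8. Against the other routes 2822 became 7319 with all arrays, 4714 with line as a random block and 905 with the feeder score as a covariate, with a range of 532 to 1466. Against ES 2948 became 6768 with all arrays, with a range of 1433 to 2120. Of the 4708 genes, 3122 kept call and direction with median centring, 3589 with quantile normalization and 2168 with the feeder score as a covariate. The cause of these changes was not tested. Of 195 list and named genes, 108 lost their call with that covariate and 3 turned direction without a call, Bgn (−0.080), Mmp14 (−0.010) and Twist2 (−0.020). Those 3 are on the fibroblast list whose mean is the score. The lines share only a clone number with no stated pairing, and 2 numbers occur in both groups, with correlations of their deviations of 0.33 and 0.089. With clone number as a replicate block 3358 genes passed, and with culture number as a replicate block and line as a random block 5400. Signal near background limits the Hox, germline and 2-cell-like lists.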
